A study of Mus musculus with 2 samples.

Results

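The cells described here are natural killer (NK) cells of mouse peripheral blood, 107 of the 36612 cell barcodes deposited and of the 7578 barcodes that passed the limits on quality. A barcode was kept when it held 200 to 6000 genes, under 10% of its unique molecular identifiers (UMIs, which tag single RNA molecules) from mitochondrial genes and under 20% from haemoglobin genes. It was called an NK cell when at least 2 of the 6 genes Ncr1, Klrb1c, Klre1, Klra8, Gzma and Prf1 had a UMI, with no UMI of the T cell genes Cd3d, Cd3e and Cd3g or of the B cell genes Cd79a and Cd79b. The rule found 43 cells among 3933 kept barcodes of db/db blood and 64 cells among 3645 kept barcodes of wt blood.

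The study measured peripheral immune cells of diabetic and control mice by droplet single-cell RNA sequencing of the 3′ ends of transcripts. The db/db group consisted of male C57BLKs/J mice of the genotype db/db, a mutation of the leptin receptor gene Lepr that makes mice obese and diabetic, aged 21 weeks. The wt group consisted of wild-type males of the same strain and age. Each group had 3 mice and gave 1 library from 200 µl of blood, in which red cells had been lysed, and no cell can be traced to a mouse. There were thus no replicates and no tests. Intervals are exact 95% intervals that cover counting error only. Lepr itself had 0 UMIs in both libraries, so its transcript gave no check of the genotype labels.

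NK cells are innate lymphocytes that kill virus-infected and transformed cells without a rearranged antigen receptor. They carry granules of perforin (Prf1) and granzymes (Gzma, Gzmb), and they weigh signals from activating receptors such as NKp46 (Ncr1) and NK1.1 (Klrb1c) against inhibitory receptors for MHC class I. In mice the lectin-like Ly49 (Klra) family recognises MHC class I, and each cell expresses its own subset of the family. Mouse NK cells mature from a stage with CD27 on the surface to a stage with CD11b (Itgam), and the mature cells carry S1pr5 and Cx3cr1 and are common in blood.

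Promoter sequences are shown for the rule genes Ncr1 and Klrb1c and for a pair of neighbouring Ly49 genes that behaved differently between the libraries, Klra4 and Klra8. Each covers 250 bases before and 50 bases after the gene start in RefSeq on the build GRCm38.p6, on the gene's own strand. They lie at chr7:4337465-4337764 on the plus strand for Ncr1 and, on the minus strand, at chr6:128788592-128788891 for Klrb1c, chr6:130067222-130067521 for Klra4 and chr6:130129849-130130148 for Klra8. Capitals mark the RUNX motif TGTGGT on either strand (read as ACCACA on the other), a motif of the RUNX factors, of which Runx3 acts in NK cells.
Ncr1: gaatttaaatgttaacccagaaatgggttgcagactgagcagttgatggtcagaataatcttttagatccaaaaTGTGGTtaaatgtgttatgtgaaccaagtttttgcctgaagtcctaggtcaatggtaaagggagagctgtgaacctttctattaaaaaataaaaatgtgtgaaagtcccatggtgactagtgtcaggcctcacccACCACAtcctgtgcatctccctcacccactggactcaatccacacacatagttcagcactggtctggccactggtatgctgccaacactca
Klrb1c: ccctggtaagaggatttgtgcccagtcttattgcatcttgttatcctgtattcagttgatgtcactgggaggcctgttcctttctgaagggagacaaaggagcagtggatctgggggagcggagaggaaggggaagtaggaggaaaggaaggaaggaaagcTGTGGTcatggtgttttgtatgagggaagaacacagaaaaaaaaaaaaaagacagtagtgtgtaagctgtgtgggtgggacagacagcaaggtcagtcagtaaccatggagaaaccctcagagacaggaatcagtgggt
Klra4: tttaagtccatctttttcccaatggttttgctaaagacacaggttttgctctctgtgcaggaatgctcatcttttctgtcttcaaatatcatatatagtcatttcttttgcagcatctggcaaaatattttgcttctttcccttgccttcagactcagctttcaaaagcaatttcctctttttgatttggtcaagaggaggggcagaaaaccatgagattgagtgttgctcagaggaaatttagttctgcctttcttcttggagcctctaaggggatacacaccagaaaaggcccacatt
Klra8: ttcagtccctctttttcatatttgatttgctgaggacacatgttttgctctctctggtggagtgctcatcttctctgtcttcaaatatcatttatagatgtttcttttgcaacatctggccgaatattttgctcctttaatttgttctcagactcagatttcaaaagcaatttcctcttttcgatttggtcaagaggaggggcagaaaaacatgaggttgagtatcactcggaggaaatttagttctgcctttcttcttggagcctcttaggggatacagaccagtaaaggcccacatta
The motif stood in the promoters of 5 of the 6 rule genes, and in 16.8% of 32851 mouse promoters of the same length. Ncr1 held 2 matches and Klrb1c held 1, while the promoters of Klra4 and Klra8, 86.0% identical to each other, held 0. The motif GGTGTGA of T-box factors such as Tbx21 and Eomes was in none of the 6 rule gene promoters and in none of the 9 promoters found for the 10 genes of the CD11b stage described below, against 3.98% of all promoters. A match or its absence describes these letters and nothing about binding.

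The label fitted the cells. The rule used the NK genes, so their levels are a description. Ncr1 had a UMI in 38 of 43 db/db cells and 57 of 64 wt cells, and Gzma had one in 42 of 43 db/db cells and 63 of 64 wt cells. Nkg7, a granule protein that the rule did not use, had a UMI in 42 of 43 db/db cells and 62 of 64 wt cells. Tyrobp and Fcer1g, the adaptor chains of activating NK receptors, had UMIs in 43 and 41 db/db cells and in 62 and 64 wt cells. In 5220 B cells, chosen by the same limits and with fewer than 2 rule genes, these genes were low or undetected, as the plot of NK genes by class shows. For the rule genes this was set in part by that choice. Most NK cells carried 4 or more of the 6 rule genes (41 of 43 in db/db, 53 of 64 in wt). Just inside the rule, 1 db/db cell and 3 wt cells held exactly 2 rule genes. Just outside it, 6 db/db and 4 wt barcodes held 1, and Nkg7 was detected in none of those.

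**Figure D1:**
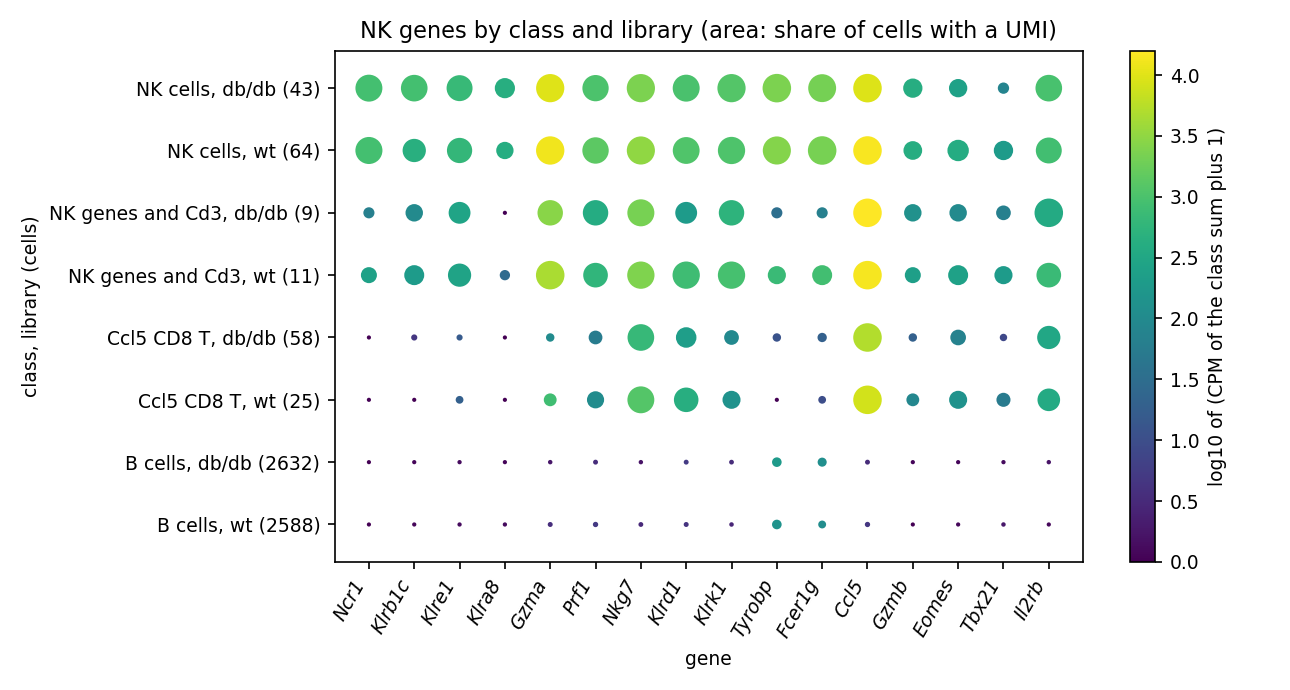
Levels of NK genes (columns) in 4 classes of cells of each library (rows, number of cells in brackets). Colour is log10 of the CPM (UMIs per 1e6 UMIs) of the class sum plus 1, and dot area is the share of cells with a UMI. Ncr1, Klra8 and Klrb1c stood in NK cells and were at or near 0 in Ccl5-detected CD8 T cells and B cells, whereas Ccl5 and Nkg7 were shared with the CD8 T cells. Ncr1, Klra8 and Klrb1c are rule genes, and the CD8 T and B classes were limited to fewer than 2 rule genes. Their low level there was thus set in part by the choice of cells.

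Markers of other cells were few but not absent. Of the T cell markers, Trac, Cd8a, Cd5, Cd6 and Themis were at 0 in NK cells of both libraries, and the T list summed to 591 CPM (UMIs of a gene or list per 1e6 UMIs of the sum) in db/db and 796 CPM in wt. Most of it was Trbc1 and Trbc2, T cell receptor beta constant genes, with Trbc1 in 23 of 43 db/db cells and 34 of 64 wt cells. B cell markers summed to 342 CPM in db/db and 630 CPM in wt, with Ms4a1, Cd22 and Pax5 among those at 0 in db/db and every one of the 10 markers detected in wt. Platelet markers summed to 187 CPM in db/db and 43.0 CPM in wt, and haemoglobin took 2.53% of the db/db NK sum and 1.71% of the wt NK sum. Neutrophil markers summed to 31.1 CPM in db/db and 32.3 CPM in wt. The non-coding RNA Gm42418 took 0.564% of the NK sum in db/db and 2.25% in wt, and 0.647% and 3.16% of the B cell sums of db/db and wt. The part of these RNAs in the comparisons below was not tested, except where values without such cells are given. The libraries shared 91 barcodes, none of them among the NK cells. No doublet caller was run, and barcodes with NK and Cd79 genes (6 in db/db, 22 in wt) or NK and Cd3 genes (9 in db/db, 11 in wt) were left out by the rule.

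NK cells made up 1.09% of kept barcodes in db/db blood (43 of 3933, interval 0.792% to 1.47%) and 1.76% in wt blood (64 of 3645, interval 1.35% to 2.24%). The ratio of db/db to wt was 0.623, with a counting interval of 0.413 to 0.931. The size of the difference depended on what the cells were set against. Of barcodes with a UMI of Ptprc, the gene of the leukocyte antigen CD45, NK cells were 1.41% in db/db and 2.03% in wt, a ratio of 0.693 whose interval reached 1.04. Per 100 T cells there were 12.6 NK cells in db/db and 13.7 in wt, a ratio of 0.922 with an interval of 0.612 to 1.38, and per B cell the ratio was 0.661. Set against Ccl5-detected CD8 T cells (58 in db/db, 25 in wt), which took a larger share of db/db blood, the ratio was 0.290, with an interval of 0.192 to 0.433. Monocytes (5.92% of kept barcodes in db/db, 2.17% in wt), neutrophils (4.98% in db/db, 2.00% in wt) and platelets (6.56% in db/db, 2.19% in wt) took larger shares of the db/db library. T cells were 8.67% in db/db and 12.8% in wt. Shares cannot tell fewer NK cells in the blood from more of other cells.

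UMIs were summed over the NK cells of each library, 128644 UMIs for db/db and 185842 UMIs for wt. The median NK cell held 2660 UMIs in db/db and 2579 in wt, and 1304 genes in db/db and 1248 genes in wt. Mitochondrial genes took a median of 2.93% of UMIs in db/db and 3.05% in wt. Of all genes, 2640 reached 20 UMIs over both sums and are called measured. A gene could reach 20 UMIs through 1 library alone, so the minimum favoured genes high in 1 library. Klrb1b, Spp1, Icam1 and Itgam below, among others, did so. Each difference is given as the log2 of the CPM plus 10 in db/db divided by the CPM plus 10 in wt, and a gene counts as past the fold when its log2 ratio is at least 1 in size. Not every gene that passed through 1 library differed, since Emb (19 UMIs in db/db, 28 in wt) had a log2 ratio of -0.03. By that rule 52 measured genes (1.97%) were higher in db/db past the fold and 128 (4.85%) were lower, with a median over all measured genes of -0.05, 45.1% of them above 0 and 54.9% below 0. The counting interval of the plain ratio of CPM, given below as the ratio interval or interval, excluded 1 on the higher side for 5.34% of measured genes and on the lower side for 5.57%.

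Genes of the CD11b stage, the mature state of mouse NK cells, were mostly lower in db/db. Of the 10 genes on that list, all measured, 6 were lower in db/db past the fold, against 4.85% of measured genes, and 0 were higher. The median was -1.04, and 8 of the 10 lay below 0. Of the 6, Itgam, S1pr5, Tbx21 and Cx3cr1 reached the minimum of UMIs through wt alone (46, 51, 36 and 29 UMIs in wt). This list, like the others below, was chosen with earlier results of these data known. Its count beside the share of all measured genes is thus a description and not a test. Itgam, which encodes CD11b, had 93.3 CPM in db/db and 248 CPM in wt (12 and 46 UMIs, log2 ratio -1.32, ratio interval 0.18 to 0.72). S1pr5, the sphingosine-1-phosphate receptor with which NK cells leave marrow and lymph nodes, had 101 CPM in db/db and 274 CPM in wt (log2 ratio -1.36, but -0.55 in the 22 db/db and 29 wt cells without markers of other lineages). Tbx21, which encodes the transcription factor T-bet that drives this maturation, had 77.7 CPM in db/db and 194 CPM in wt (log2 ratio -1.22). Spn, the surface glycoprotein CD43, had 311 CPM in db/db and 646 CPM in wt (log2 ratio -1.03). These genes were thus each at less than 1 in 2 of their wt level in db/db.

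The other members of the list were mixed. Cx3cr1, the fractalkine receptor, had 70.0 CPM in db/db and 156 CPM in wt (log2 ratio -1.05, and -0.51 in the 16 db/db and 23 wt cells also free of other T cell genes). The mast cell protease gene Cma1 had 5 UMIs in db/db and 19 in wt, and its ratio interval, 0.11 to 1.05, included 1. Zeb2, a transcription factor of terminal maturation, had 412 CPM in db/db and 775 CPM in wt (log2 ratio -0.90), and it was also lower in B cells of db/db, at 105 CPM against 186 CPM in wt B cells. Klrg1, an inhibitory receptor of mature cells, was at -0.37 with an interval that included 1. Ly6c2 (0.48) and Prdm1 (0.82) were on the higher side in db/db. Spn, Cma1 and Cx3cr1 fell short of the fold in several other settings, down to -0.78 for Spn and for Cma1. Tbx21 fell short with 50 CPM added (-0.93), and Itgam was past the fold in each setting run. Under 19 other settings the list's median lay between -0.78 and -1.33, and the number of members lower past the fold lay between 2 and 7.

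**Figure D2:**
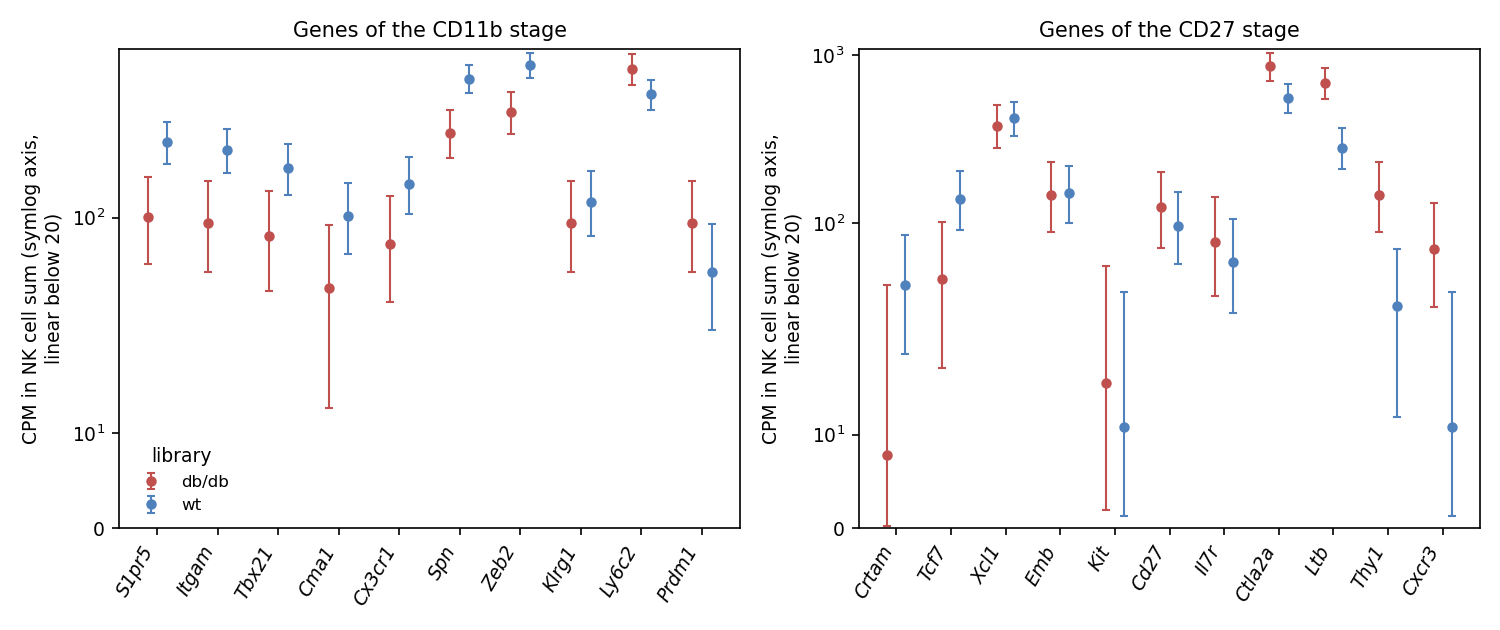
CPM in the NK cell sums of db/db (red, left of each pair) and wt (blue) for genes of the CD11b stage and the CD27 stage, ordered by their log2 ratio; bars are exact 95% Poisson intervals. Itgam, S1pr5 and Spn lay lower in db/db with intervals that do not overlap, and Ltb and Thy1 lay higher.

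For Itgam and S1pr5 the difference was also seen in the number of cells with a UMI. Itgam was detected in 8 of 43 db/db cells (18.6%, interval 8.39% to 33.4%) and 33 of 64 wt cells (51.6%, interval 38.7% to 64.2%). Among B cells, used as a guide to the level from free RNA, Itgam was detected in 1.67% in db/db and 1.47% in wt. The source of the Itgam UMIs in B cells was not tested. S1pr5 was detected in 9 of 43 db/db cells and 34 of 64 wt cells, and Tbx21 in 5 of 43 db/db cells and 27 of 64 wt cells. With each cell thinned to 1000 UMIs, which left out 1 cell of each library, Itgam was detected in 4.76% of db/db cells and 28.6% of wt cells, and S1pr5 in 9.52% of db/db cells and 30.2% of wt cells. Tbx21 drew closer, at 9.52% in db/db and 14.3% in wt, and thinned Cx3cr1 was detected in 9.52% of cells in both libraries. Eomes, the other T-box factor of NK cells, had 249 CPM in db/db and 382 CPM in wt (log2 ratio -0.60), and cells with UMIs of both Eomes and Tbx21 numbered 1 of 43 in db/db and 15 of 64 in wt.

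Genes of the CD27 stage were split. Of 11 listed genes 8 were measured, of which 2 were higher in db/db past the fold and 1 was lower, against 1.97% higher and 4.85% lower among all measured genes, with a median of 0.34. Ltb, a lymphotoxin subunit, had 684 CPM in db/db and 280 CPM in wt (88 and 52 UMIs, log2 ratio 1.26, ratio interval 1.72 to 3.51), and was detected in 28 of 43 db/db cells and 22 of 64 wt cells. Ltb was also abundant in B cells, at 1020 CPM in db/db and 937 CPM in wt. The levels of B cell markers in the NK sums are given above, and the part of B cell RNA in the Ltb level was not tested. Thy1, a surface glycoprotein of T cells and part of the NK cells, had 148 CPM in db/db and 32.3 CPM in wt (19 and 6 UMIs in 9 and 3 cells, log2 ratio 1.90). Cd27 itself had 124 CPM in db/db and 96.9 CPM in wt, with an interval that included 1. The chemokine receptor Cxcr3, under the minimum of counts, had 9 UMIs in 7 db/db cells and 2 UMIs in 2 wt cells. Crtam, an adhesion receptor also under the minimum, had 1 UMI in db/db and 8 UMIs in 3 wt cells, and Kit had 2 UMIs in each library.

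Tcf7, a transcription factor of the early stage, ran the other way, with 46.6 CPM in db/db and 140 CPM in wt (log2 ratio -1.40). Ctla2a had 855 CPM in db/db NK cells and 554 CPM in wt NK cells (log2 ratio 0.62), and it was also higher in B cells of db/db, at 411 CPM against 155 CPM in wt B cells. Cell by cell, those with a UMI of Cd27 and none of Itgam were 12 of 43 in db/db (27.9%, interval 15.3% to 43.7%) and 8 of 64 in wt (12.5%, interval 5.55% to 23.2%). Those with Itgam and without Cd27 were 5 of 43 in db/db (11.6%, interval 3.89% to 25.1%) and 24 of 64 in wt (37.5%, interval 25.7% to 50.5%). Neither gene was detected in 23 cells of db/db and 23 cells of wt, so many cells cannot be placed by these transcripts. The median cell held UMIs of 2 CD11b-stage genes in db/db and 4 in wt, and of 3 CD27-stage genes in db/db and 1.5 in wt.

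**Figure D3:**
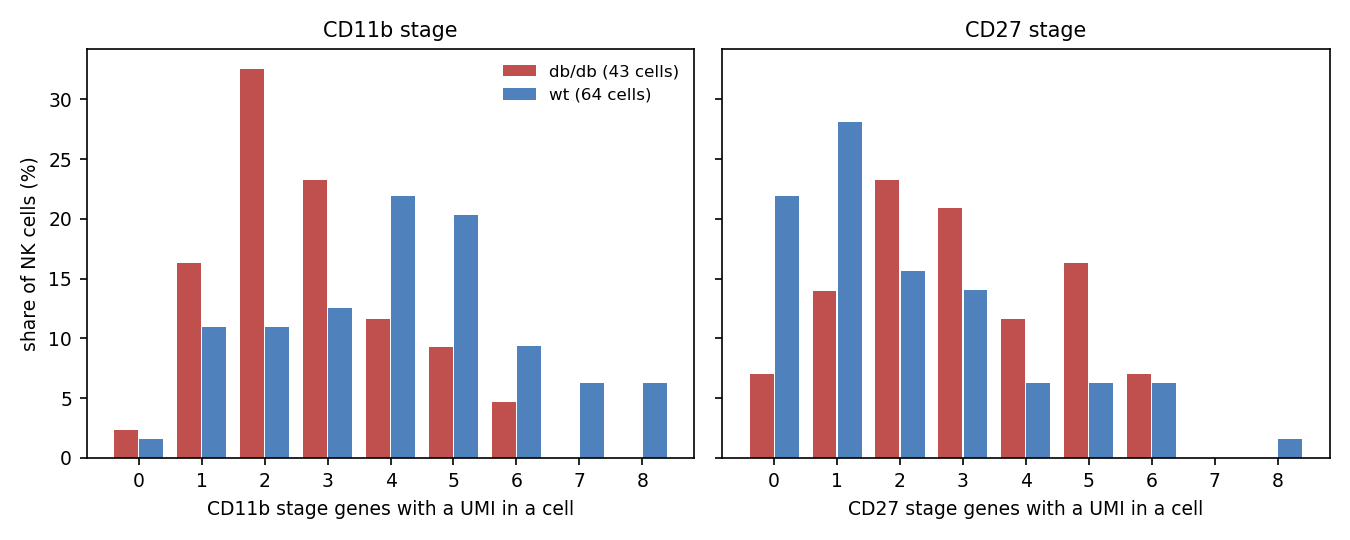
Share of NK cells (vertical axis, percent) by the number of CD11b-stage or CD27-stage genes with a UMI (horizontal axis), for db/db (red, left bar) and wt (blue). The db/db cells were most often at 2 CD11b-stage genes and the wt cells most often at 4, without a gap between the distributions.

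Within wt, the 33 cells with an Itgam UMI and the 31 without one had median depths of 2544 and 2622 UMIs. Spn had 813 CPM in the cells with Itgam and 481 CPM in those without, and Zeb2 had 944 CPM with and 609 CPM without. Ly6c2 had 705 CPM with Itgam and 342 CPM without, and Klra8 had 553 CPM with and 246 CPM without, each of the 4 with a ratio interval above 1. Gzmb was lower, at 293 CPM with Itgam and 545 CPM without. The intervals of S1pr5, Tbx21, Cx3cr1, Cma1 and Klrg1 included 1 in wt, so 3 of the 8 other list members looked at differed by this split. In db/db, with 8 cells holding Itgam, the intervals of these 8 genes included 1.

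Among the Ly49 receptors, 6 of 9 genes were measured and 1 was higher in db/db past the fold, against 1.97% of all measured genes. That gene was Klra4, which encodes the activating receptor Ly49D and lies at chr6:130043731-130067271 on the minus strand of GRCm38. It had 941 CPM in db/db and 199 CPM in wt (121 and 37 UMIs, log2 ratio 2.18, ratio interval 3.25 to 7.03). It was detected in 20 of 43 db/db cells and 13 of 64 wt cells, the highest db/db cell held 18 of its 121 UMIs, and thinned cells gave 38.1% in db/db and 11.1% in wt. Klra4 was at 0 in Ccl5-detected CD8 T cells of both libraries. Its neighbour Klra8 (Ly49H, an activating receptor for a cytomegalovirus protein), a rule gene, had 435 CPM in db/db and 398 CPM in wt.

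The remaining measured Ly49 genes were under the fold. Klra9 had 420 CPM in db/db and 215 CPM in wt (log2 ratio 0.93), and Klra3 had 389 CPM in db/db and 613 CPM in wt (log2 ratio -0.65). These values are uncertain as gene identities, since the last 300 bases of the annotated transcripts of Klra3 and Klra9 were 98.7% identical, and over the 36 pairs of Ly49 genes identity ran from 52.0% to 98.7%. Klra4 was closest to Klra1, at 83.2%, and Klra1 had 140 CPM in db/db and 102 CPM in wt (log2 ratio 0.42). The mm10 reference is of another strain than these mice, and whether Ly49 alleles of the 2 libraries were counted alike was not tested. At least 3 Ly49 genes were detected in 18 of 43 db/db cells and 14 of 64 wt cells, while none was detected in 10 db/db cells and 5 wt cells. Both Klra4 and Klra8 were detected in 15 db/db cells and 8 wt cells.

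Other lectin-like receptors lie in the same NK gene complex of chromosome 6. Of 16 listed genes 13 were measured, and 1 was higher in db/db past the fold, against 1.97% of all measured genes. Klrb1b, which encodes the inhibitory receptor NKR-P1B for the ligand Clec2d and lies at chr6:128813706-128826331, had 187 CPM in db/db and 21.5 CPM in wt. Its 24 db/db UMIs were spread over 17 cells and its 4 wt UMIs over 4 cells (log2 ratio 2.64, ratio interval 2.98 to 34.4), so the size of the difference is poorly fixed. Klrb1c, the NK1.1 gene and a rule gene, had 871 CPM in db/db and 441 CPM in wt (log2 ratio 0.96). Klrb1a, of the same subfamily, was on the other side with 117 CPM in db/db and 226 CPM in wt (log2 ratio -0.90), and Klrc1 (NKG2A, inhibitory) had 109 CPM in db/db and 221 CPM in wt (log2 ratio -0.96). Klrd1, which encodes CD94, the partner chain of NKG2 receptors, was at -0.16, Klrk1 (NKG2D, activating) at 0.18 and Klrc2 (NKG2C, activating) at 0.51, with intervals that included 1.

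**Figure D4:**
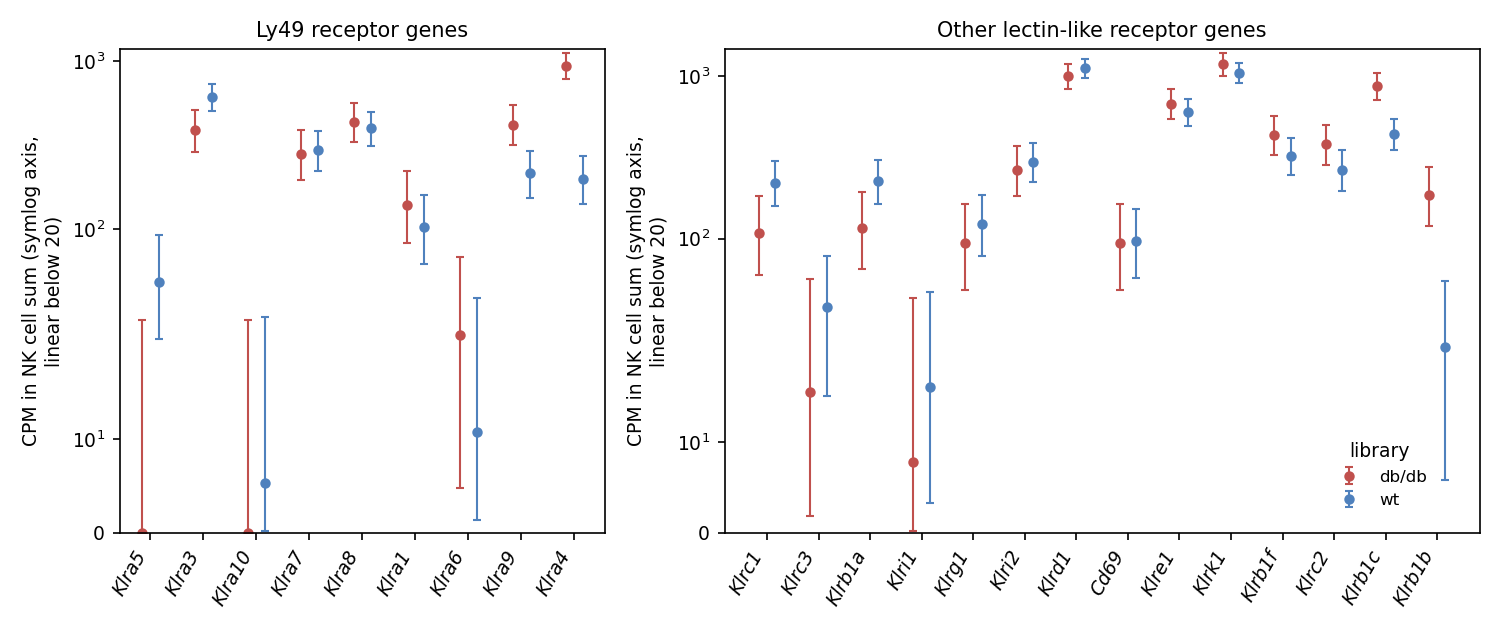
CPM in the NK cell sums of db/db (red, left of each pair) and wt (blue) for 9 Ly49 genes and 14 other lectin-like receptor genes, ordered by their log2 ratio; bars are exact 95% Poisson intervals. Klra4 and Klrb1b stood highest in db/db relative to wt in their panels.

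Outside these families, of 7 measured activating receptors none was past the fold, against 1.97% higher and 4.85% lower among all measured genes. Ncr1 was at 0.02 and Cd2, an adhesion receptor, at 0.66. Of 10 measured adaptors and kinases 1 was lower in db/db past the fold. This was Cd247, the CD3 zeta chain that signals for Ncr1, with 62.2 CPM in db/db and 140 CPM in wt (log2 ratio -1.05, interval 0.17 to 1.01, which included 1). Hcst, the DAP10 adaptor of NKG2D, had 404 CPM in db/db and 619 CPM in wt (log2 ratio -0.60). Tyrobp (-0.18) and Fcer1g (-0.07) had intervals that included 1. The 10 listed inhibitory receptors outside the lectin family, among them Tigit, Lag3 and Pdcd1, had too few UMIs to be measured.

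The killing machinery had no measured gene past the fold. Of 22 granule and killing genes 13 were measured and 0 were past the fold, with a median of 0.01. Of all measured genes 1.97% were higher past the fold and 4.85% were lower, so 0 of 13 is near the share of all genes. Gzma, the most abundant of them and a rule gene, had 10004 CPM in db/db and 13097 CPM in wt (log2 ratio -0.39), and Prf1, also a rule gene, had 1011 CPM in db/db and 1372 CPM in wt (log2 ratio -0.44). Nkg7 had 2386 CPM in db/db and 3212 CPM in wt (log2 ratio -0.43, interval 0.65 to 0.85). Gzmb had 412 CPM in db/db and 420 CPM in wt. Serpinb9, the inhibitor that guards the cell against granzyme B, had 482 CPM in db/db and 274 CPM in wt (log2 ratio 0.79, interval 1.19 to 2.60). Cytokine receptors and their signalling genes also had 0 of 13 measured genes past the fold, with Il2rb, the shared receptor chain for interleukins 2 and 15, at 0.16, and Il2rg, the common gamma chain, at -0.82.

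Secreted factors were lower in db/db for the most part, with 6 of 7 measured genes below 0, against 54.9% of all measured genes, and a median of -0.59; Ltb, above, was the exception. The median was not stable, at 0.88 in the 16 db/db and 23 wt cells also free of other T cell genes, where only 637 genes were measured. In those cells Ltb was at 2.09, while Ccl3 (-4.07) and Ccl4 (-1.18) remained below 0. Over all settings Ccl5 and Ifng stayed below 0, and Xcl1 and Tgfb1 reached up to 1.02 and 1.16. Ccl5, a chemokine that NK cells keep at high levels, had 9507 CPM in db/db and 14346 CPM in wt (log2 ratio -0.59, interval 0.62 to 0.71). Ccl3 had 12 UMIs in 2 db/db cells and 68 UMIs in 11 wt cells (log2 ratio -1.86), and Ccl4 had 20 UMIs in 5 db/db cells and 96 UMIs in 12 wt cells (log2 ratio -1.67). These chemokines are induced on activation and came from few cells, since the top 2 cells held 48 of the 68 Ccl3 UMIs and 77 of the 96 Ccl4 UMIs in wt. Without the highest cell of each library Ccl3 was at -3.56 and Ccl4 at -2.57. Ifng, the interferon gamma gene, had 10 UMIs in db/db and 24 in wt, with an interval that included 1.

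Genes of adhesion and traffic leaned to the lower side in db/db. Of 16 measured genes 14 were below 0 (54.9% of all measured genes were) and 4 were lower past the fold (4.85% of all), with a median of -0.46. Of those 4, 3 (S1pr5, Cx3cr1 and Itgam) are also on the CD11b-stage list. The fourth was Icam1, a ligand of LFA-1, with 31.1 CPM in db/db and 167 CPM in wt (4 and 31 UMIs in 3 db/db and 14 wt cells, log2 ratio -2.11, and -0.60 in the cells also free of other T cell genes). Itgb2, the beta chain that pairs with CD11b and with LFA-1, had 319 CPM in db/db and 624 CPM in wt (log2 ratio -0.95, interval 0.35 to 0.73). Itga4 had 622 CPM in db/db and 990 CPM in wt (log2 ratio -0.66). The chemokine receptor Ccr2 was at 0.10, with an interval that included 1.

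Of 16 measured transcription factors, 3 were lower in db/db past the fold, namely Tbx21, Tcf7 and Gata3, and 0 were higher, against 4.85% lower and 1.97% higher among all measured genes. Tbx21, Tcf7 and Gata3 reached the minimum of UMIs through wt alone (36, 26 and 20 UMIs in wt), so this count is a description. Gata3 had 38.9 CPM in db/db and 108 CPM in wt (5 and 20 UMIs, log2 ratio -1.27, and -0.68 without the haemoglobin limit). Irf8, which supports NK cell maturation and antiviral responses, had 381 CPM in db/db and 640 CPM in wt (log2 ratio -0.73, interval 0.42 to 0.84). Id2, needed to maintain NK cells, had 1329 CPM in db/db and 1060 CPM in wt (log2 ratio 0.32, interval 1.02 to 1.55), and Runx3 had 326 CPM in db/db and 215 CPM in wt (log2 ratio 0.58), with an interval that included 1.

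Lists not specific to NK cells were also compared. Ribosomal protein genes were higher in db/db for 26 of 28 members, against 45.1% of all measured genes, with a median of 0.53 and none past the fold. Rps4x had 3731 CPM in db/db and 2287 CPM in wt. Interferon response genes were below 0 for 8 of 10 measured members, against 54.9% of all measured genes, with a median of -0.58. Of the 10, Trim30a was lower past the fold (8 and 29 UMIs, log2 ratio -1.20), while Ly6e had 645 CPM in db/db and 382 CPM in wt (log2 ratio 0.74). Of MHC class I genes, H2-Q7 had 280 CPM in db/db and 716 CPM in wt (log2 ratio -1.32), and H2-K1 had 1485 CPM in db/db and 2610 CPM in wt (log2 ratio -0.81), but H2-D1 had 5022 CPM in db/db and 3325 CPM in wt (log2 ratio 0.59). These class I genes are near copies of one another, so reads may be split between them. Txnip, which is induced by glucose, had 707 CPM in db/db and 296 CPM in wt (log2 ratio 1.23, interval 1.69 to 3.40, and 0.79 in the cells without markers of other lineages). Glycolysis (0 of 11 past the fold, median -0.11), oxidative phosphorylation (0 of 36, median -0.07) and insulin, leptin and mTOR signalling (0 of 9, median -0.21) lay near the median of all genes. Past the fold were 1.97% of all measured genes on the higher side and 4.85% on the lower side. Only 2 of 26 lipid genes were measured. Of the 21 genes on the list of immediate early and heat shock genes, which respond to handling and stress, 9 were measured and 8 of those were below 0, against 54.9% of measured genes, with a median of -0.36. The measured members included the heat shock genes Hspa8, Hsp90aa1 and Dnajb1, and Fos, Jun and Egr1 had too few UMIs to be measured.

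The 12 genes highest in db/db by the naming rule were led by Klrb1b, Khdc1a (17 UMIs in db/db, 3 in wt), Klra4 and Thy1. After them came Mtmr9, the tumour suppressor gene Trp53 (27 UMIs in db/db, 12 in wt, log2 ratio 1.56), Qrfp, Mphosph10, the RNA-binding protein gene Qk (27 UMIs in db/db, 14 in wt), Arid4a, Glrx3 and Dnajc2. The lowest gene was Spp1, which encodes osteopontin, with 0 UMIs in db/db and 28 in wt, all of them in 1 cell, so it describes that cell. Next came Nub1 (2 UMIs in db/db, 22 in wt), Ube2j2 (2 in db/db, 20 in wt) and Icam1. The kinase gene Irak1 of interleukin 1 and Toll-like receptor signalling had 4 UMIs in db/db and 27 in 22 cells of wt. Ccl3, Zc3h15, Azin1, Phrf1, Rap1gds1, Atp6v1e1 and Rlim completed the 12. Apart from Klra4, every gene of these 24 had at most 41 UMIs in a library or, for Ccl3, 68, so their ratios are imprecise.

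**Figure D5:**
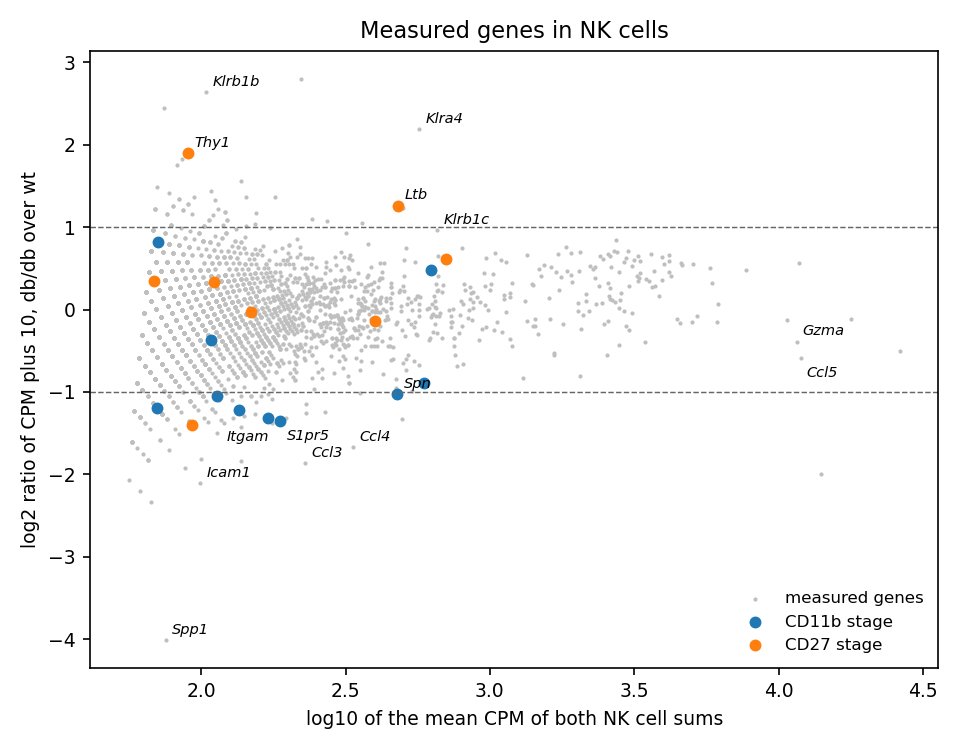
Log2 ratio of db/db to wt, from CPM plus 10 (vertical axis), against log10 of the mean CPM of both NK cell sums (horizontal axis) for 2640 measured genes; dashed lines mark log2 ratios of 1 and -1. Genes of the CD11b stage (blue) lay mostly below 0, and Klra4 and Ltb were higher in db/db at levels where most genes lay near 0.

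NK cells were set beside Ccl5-detected CD8 T cells with fewer than 2 rule genes, cytotoxic lymphocytes with a rearranged receptor, 58 in db/db and 25 in wt. Several genes of the CD11b list were also lower in db/db among these T cells, from few UMIs. Zeb2 had 39.8 CPM in db/db and 157 CPM in wt (11 and 18 UMIs). Cx3cr1 had 7.23 CPM in db/db and 87.0 CPM in wt (2 and 10 UMIs), and Tbx21 had 7.23 CPM in db/db and 52.2 CPM in wt (2 and 6 UMIs). In all T cells Zeb2 (56.0 CPM in db/db, 44.8 CPM in wt) and Cx3cr1 (26.1 CPM in db/db, 17.2 CPM in wt) were on the higher side in db/db. Tbx21 was lower there too (4.83 CPM in db/db, 9.21 CPM in wt), and the intervals of Zeb2, Cx3cr1 and Tbx21 included 1. All T cells include the barcodes with NK genes and a Cd3 UMI, given below. Those barcodes held 23 of the 27 db/db and 11 of the 28 wt UMIs of Cx3cr1. For Zeb2 they held 25 of the 58 db/db and 14 of the 73 wt UMIs. The higher side in all T cells is thus not separate from the values of those barcodes. The Ccl5 level of the Ccl5-detected CD8 T cells is not compared, since a UMI of Ccl5 was needed to be chosen. In all T cells Ccl5 had 2439 CPM in db/db and 1254 CPM in wt, the opposite side from NK cells. Itgam was nearly absent from the sums of Ccl5-detected CD8 T cells (1 cell of each library), and Ncr1, Klra4 and Klrb1b were at 0 there. Among all T cells Itgam was in 11 db/db and 5 wt cells, and Ncr1 had 2 UMIs in db/db and 9 in wt. Whether the differences in NK cells and in T cells differ in size was not tested. Of the barcodes with NK genes and a Cd3 UMI, the 9 of db/db had Cx3cr1 at 735 CPM and Zeb2 at 799 CPM. The 11 of wt had Cx3cr1 at 304 CPM and Zeb2 at 387 CPM. These were on the opposite side from NK cells, while Tbx21 (64.0 CPM in db/db, 193 CPM in wt) was on the same side. The sums held only 31272 UMIs in db/db and 36219 UMIs in wt.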

How the data were processed

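Blood cells of 1 db/db and 1 wt library, each of 3 mice, were measured with a 3′ single-cell kit. The deposited matrices hold raw UMI counts per gene and barcode (31053 genes, at least 500 UMIs in each barcode), made by the authors with Cell Ranger 3.0.2 on mm10, per the file headers and the submitters' processing notes. The gene annotation was not given in the sources used here.

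Counts were read with Python 3.11.15, numpy 2.4.6, scipy 1.17.1 and pandas 2.3.3, and plotted with matplotlib 3.10.9. NK cells were chosen and counted as described, and their UMIs were summed per library and scaled to CPM, with 10 CPM added before the log2 ratio. Shares have Clopper-Pearson, levels Poisson and ratios conditional binomial intervals, all of counting error only. Where no UMI was seen, up to 3 counts were allowed for (23.3 CPM in db/db, 16.1 CPM in wt). The ratio steps were tested on simulated data. With 1 library per group no p-value is given. T cells had a Cd3 UMI and no Cd79 UMI, and B cells a Cd79 UMI and no Cd3 UMI, under the same limits. B cells and Ccl5-detected CD8 T cells were also limited to fewer than 2 rule genes. Named genes were the rule genes, members of 24 lists, and the 12 highest and 12 lowest log2 ratios among measured genes whose ratio interval excludes 1 and whose level reached 25% of that in any other class; mitochondrial, ribosomal, haemoglobin, unnamed and variable-segment genes and a short list of sex marker genes (Xist, Tsix and Y-linked genes) could not be among those 24. Positions are from GENCODE M21 on GRCm38. The members and lists were chosen with earlier results of these data known. Alternatives changed the limits, the rule, the scaling, the added CPM and the minimum of UMIs.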

Additional observations from a re-analysis of the deposited data

How the results depend on the processing

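No paired analysis was possible because each group had 1 library, and for the same reason no replicate could be left out. No alternative turned a called value round. The ratio of NK cell shares stayed inside its counting interval under all 12 alternatives (0.429 with a 5% mitochondrial limit to 0.922 per T cell), but set against Ccl5-detected CD8 T cells it was 0.290, outside that interval. Of 2311 values of named genes under alternatives, 69 moved beyond the counting interval and 0 called ones changed sign. No scaling moved the median of all genes by 0.1.

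Counts of genes past the fold depended on the settings. The 52 genes higher in db/db became 91 without a haemoglobin limit, 85 with cells weighted equally, 13 with 50 CPM added, 179 at a minimum of 10 UMIs and 8 at 50 UMIs. The 128 lower genes became 48 in cells also free of other T cell genes, 64 without cells holding other lineages, 30 with 50 CPM added, 382 at 10 UMIs and 20 at 50 UMIs. The first 2 of these keep 16 and 22 db/db cells and 23 and 29 wt cells, so fewer genes were measured; the other causes were not tested. In the smaller sets some list medians moved. Without other T cell genes they were 0.88 for chemokines and cytokines (main value -0.59), 1.43 for glucocorticoid genes (0.02) and 0.44 for cell cycle genes (-0.37). The 1.43 is the value of Txnip alone in those cells. There 637 genes were measured, against 2640 in the main setting, so these medians can rest on few members. Without other lineages the list medians were -2.54 for chemokines and cytokines and 1.75 for the CD27 stage (0.34, now 2 genes). The other 428 of 433 list medians stayed within their range. Klra4 ran from 1.35 to 2.96, Klrb1b from 1.73 to 5.03, Itgam from -1.91 to -1.05 and S1pr5 from -1.84 to -0.55. The alternatives without the wt cell of most UMIs, without each gene's highest cell, and with Cd79 UMIs allowed (47 and 84 cells) were chosen after seeing the data. The depth leaves genes under about 20 UMIs unmeasured.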
